A study of Mus musculus with 12 samples.

Results

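The response of wild-type bone marrow-derived macrophages (BMDMs) to lipopolysaccharide and ATP (LPS+ATP) was described from 6 of the 12 RNA sequencing libraries of the study, 3 of unstimulated wild-type BMDMs (control) and 3 of wild-type BMDMs given LPS and then ATP. The libraries were chosen by the genotype and treatment in their labels. Of 55335 genes in the table, 12622 reached 1 FPKM (fragments per kilobase of transcript and of library size, a level per length) in at least 3 of the 12 libraries and were tested. BMDMs are macrophages grown from bone marrow. Here they came from C57BL/6 mice aged 8 weeks, and the adherent cells had been kept with macrophage colony-stimulating factor at 40 ng/ml for 7 days. The other 6 libraries came from Nlrp3-/- BMDMs, 3 unstimulated and 3 with LPS+ATP, which carry no functional copy of the inflammasome sensor NLRP3. They entered the shared estimate of spread and the test of whether a response differed by genotype. The labels give 4 h of LPS before 30 min of ATP, whereas the study's methods describe 200 ng/ml LPS for 12 h and 3 mM ATP for 2 h, and which schedule these libraries followed cannot be told apart from the files. No library had LPS alone or ATP alone, so the contributions of the pair cannot be told apart either. No source says that the 3 libraries of a group came from separate mice or cultures, and the p-values measure only the spread between these libraries, which may be technical.

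LPS, a glycolipid of the outer membrane of Gram-negative bacteria, is passed by CD14 to the complex of TLR4 and MD-2. Signals through the adaptor MyD88 activate NF-κB and MAP kinases, and signals through TRIF activate IRF3, which with NF-κB induces interferon-β. Secreted interferon then acts through its receptor and STAT factors on a broad set of antiviral genes. In the same cells NF-κB raises NLRP3 and the precursor of interleukin-1β, a step known as priming. Extracellular ATP opens the channel P2X7, potassium leaves the cell, and NLRP3 assembles with ASC and caspase-1, which cleaves interleukin-1β and gasdermin D. The libraries measured messenger RNA, not cleavage or release.

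The labels were checked first. Nlrp3 stood at 9.24, 9.71 and 10.1 FPKM in the control libraries and at 32.1, 33.0 and 33.6 FPKM in the LPS+ATP libraries, and was listed at 0 in the Nlrp3-/- groups. Defining macrophage genes were high in both states, with the lysozyme gene Lyz2 at 18464 ± 643 and 9471 ± 25.5 FPKM and Cd68, an endosomal glycoprotein, at 1450 ± 27.0 and 814 ± 17.1 FPKM in control and LPS+ATP. The summed level of 8 macrophage markers ran from 19936 to 21081 FPKM in control and from 11702 to 11800 FPKM with LPS+ATP, and 2 of the 8 rose and none fell. The 8 markers of neutrophils and their precursors summed to 333.7 to 369.5 FPKM in control and 109.2 to 126.5 FPKM with LPS+ATP, with 5 of 7 tested members lower. Fibroblast markers summed to 234.3 to 240.9 and 242.9 to 249.6 FPKM, while all dendritic and NK cell markers were under 1 FPKM in the 6 libraries. Summed levels of B cell, T cell, erythroid, mast cell and endothelial markers stayed under 13 FPKM, and those of osteoclasts, some of which macrophages share, were 137.3 to 145.4 FPKM. In bulk RNA, fewer cells of a type and less of its RNA per cell cannot be told apart. Relative depth, read from the most common ratio of low FPKM values between libraries, spanned 1 to 1.218 over the 12 libraries. Pearson's r of log2(FPKM + 1) was 0.9907 to 0.9925 within the wild-type groups and 0.8319 to 0.8349 between them. It was taken across genes, which are not independent replicates.

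LPS+ATP changed 2452 of the 12622 tested genes, or 19.43%, of which 1041 rose (8.25%) and 1411 fell (11.2%). The verbs rise and fall are kept for genes that moved by 1 or more on the log2 scale with a limma adjusted p (Benjamini-Hochberg, over all tested genes) below 0.05, from a model of log2(FPKM + 1) in all 4 groups. Rises reached further than falls. By 3 or more on the log2 scale there were 164 rises and 32 falls, by 4 or more 101 and 9, and by 6 or more 23 and 0. The largest rise was 10.13, of the interleukin-1β gene, and the largest fall was -4.51, of the growth-arrest gene Gas6. Because 1 FPKM was added before the logarithm, these differences understate the change of genes with low levels. Below, a level is given as mean ± SD of 3 libraries in FPKM and a log2 fold change as estimate ± SE.

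**Figure D1:**
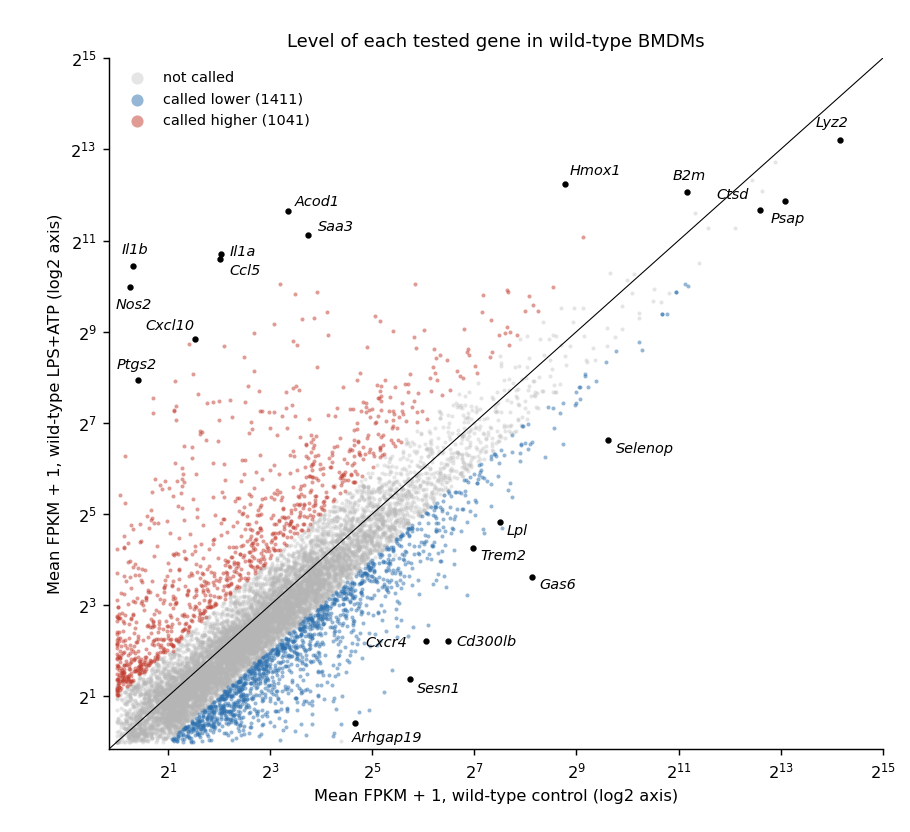
Mean level of each tested gene in the 3 wild-type control libraries (x axis) and the 3 wild-type LPS+ATP libraries (y axis), both as FPKM + 1 on log2 axes, with the 1041 genes called higher in red, the 1411 called lower in blue and the rest in grey. The red points extend further from the diagonal, up to a log2 fold change of 10.13 for Il1b, than the blue points, whose largest fall was 4.51 for Gas6.

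Many of the risen genes were close to silent in control. Of the 1041, 724 had means of at least 1 FPKM in both wild-type states and 317 only with LPS+ATP. Of the 1411 lower genes, 1025 stayed at 1 FPKM or more in both and 386 only in control. Among the tested genes 18 were listed at 0 in all 3 control libraries and at 1 FPKM or more in all 3 LPS+ATP libraries, and 2 showed the reverse. The 18 held the colony-stimulating factor genes Csf3, at 17.7, 18.4 and 17.0 FPKM with LPS+ATP, and Csf2, at 1.88, 2.51 and 1.91 FPKM. Csf2 was singled out after its values were seen. Protein-coding genes made up 11115 of the tested genes, with 859 higher and 1277 lower, whereas of 463 long noncoding RNA genes 86 were higher and 47 lower. After median-ratio scaling, described below, the counts were 1170 higher and 815 lower for protein-coding and 101 and 34 for noncoding genes. The median annotated transcript length was 3340 bases over all tested protein-coding genes, 2975 for the higher and 3168 for the lower ones.

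The 12 protein-coding genes with the largest rise were led by secreted mediators and inducible enzymes. Il1b, which encodes the inflammasome substrate interleukin-1β, stood at 0.234, 0.298 and 0.186 FPKM in the control libraries and at 1388, 1404 and 1366 FPKM in the LPS+ATP libraries (log2 fold change 10.13 ± 0.06, limma adjusted p = 3.6e-16). Nos2, the inducible nitric oxide synthase, went from 0.281, 0.127 and 0.166 to 1020, 990.3 and 1003 FPKM. The control libraries of both genes were all under 1 FPKM and the LPS+ATP libraries all near or above 990. Acod1, the enzyme that makes itaconate, was measured at 8.98, 9.95 and 8.47 and then 3268, 3195 and 3154 FPKM, a 351-fold higher mean, and was among the 10 genes with the highest mean level with LPS+ATP. Il1a, the gene of interleukin-1α, rose from 3.10 ± 0.211 to 1673 ± 33.1 FPKM, and the T cell chemoattractant gene Ccl5 from 3.07 ± 0.422 to 1547 ± 122 FPKM. The remaining 7 were the prostaglandin genes Ptgs2 and Ptges, the acute-phase gene Saa3 (from 12.5 ± 0.808 to 2244 ± 88.8 FPKM), the chemokine genes Cxcl10 and Cxcl9, the complement factor B gene Cfb, and Slc7a2, an importer of arginine (from 1.21 ± 0.146 to 239.8 ± 4.51 FPKM). Adjusted p-values of the 12 ran from 8.9e-17 for Il1a to 1.3e-11 for Slc7a2 (limma). That the libraries of the states do not overlap was part of the rule that chose these genes.

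The 12 largest falls were of signalling, trafficking and surface genes. Gas6, a bridging ligand between phosphatidylserine on dying cells and the receptors AXL and MERTK, stood at 275, 286 and 278 FPKM in control and 11.3, 12.1 and 10.7 FPKM with LPS+ATP (log2 fold change -4.51 ± 0.05, limma adjusted p = 2.1e-14). Sesn1, a sestrin that restrains mTORC1, fell from 52.5 ± 0.791 to 1.61 ± 0.254 FPKM, and Arhgap19, a GTPase-activating protein, fell from 24.4 ± 0.321 to 0.323 ± 0.0327 FPKM. All 3 LPS+ATP libraries of each lay far under all 3 control libraries, and absence of overlap was part of the rule that chose the 12. Cd300lb and Cd300a, neighbouring receptors of the CD300 family, fell from 88.3 ± 2.03 to 3.67 ± 0.291 FPKM and from 40.6 ± 1.22 to 1.98 ± 0.109 FPKM. The lysosomal transporter gene Slc46a3 was less even in control, at 36.6, 27.5 and 24.7 FPKM, and stood at 0.531, 0.646 and 0.658 FPKM with LPS+ATP. The others were the Rab exchange factor Rab3il1 (-4.15), the sialyltransferase St6gal1 (-4.11), the endosomal sodium-proton exchanger Slc9a9 (-4.09), the costimulatory receptor Cd28 (-4.04), Pcp4l1 (-3.999) and the chemokine receptor Cxcr4 (-3.86), each with its log2 fold change in brackets.

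**Figure D2:**
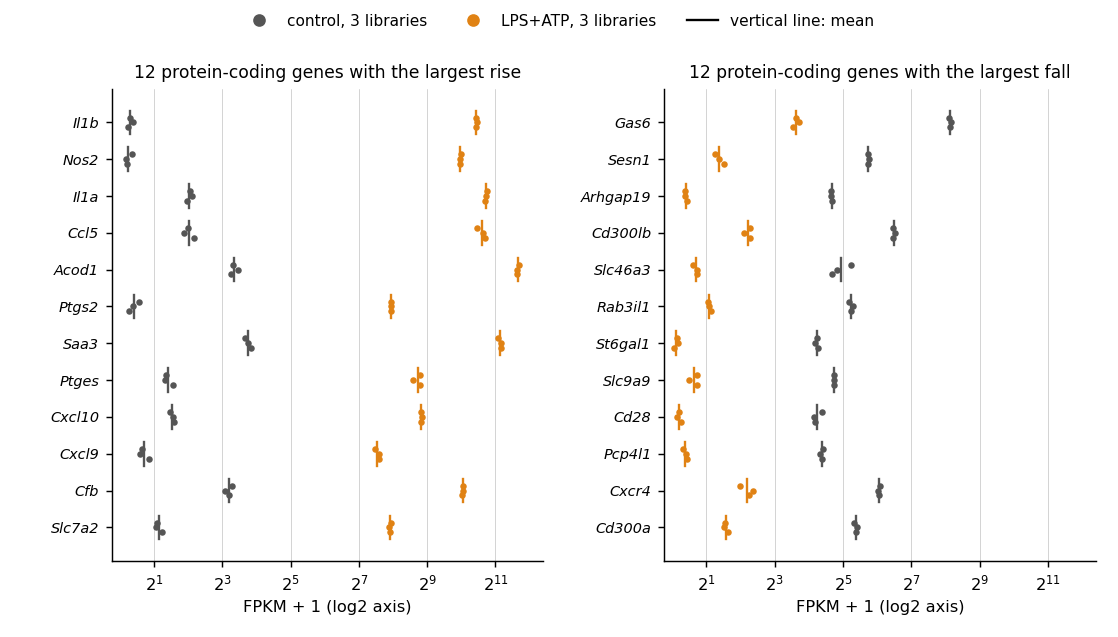
FPKM + 1 on a log2 axis in each of the 3 control libraries (grey points) and 3 LPS+ATP libraries (orange points) for the 12 protein-coding genes that rose most and the 12 that fell most, with a short vertical line at each group's mean. Points of a group lie close together, and the groups stand apart as the choice of genes required, from Il1b at 0.239 and 1386 FPKM to Gas6 at 279.5 and 11.4 FPKM.

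The rises took up a large share of the measured RNA. Genes called higher held 4.84% ± 0.0242 (SD, n = 3) of the FPKM summed over all genes in control and 29.9% ± 0.101 with LPS+ATP, genes called lower went from 22.9% ± 0.240 to 8.65% ± 0.0471, and the uncalled tested genes from 71.7% ± 0.229 to 60.9% ± 0.114. FPKM is a share of the library, so a gene of constant abundance reads lower where others expand, and the median log2 fold change over all tested genes was -0.26. Median-ratio scaling, which divides each library by the median ratio of its genes to their geometric means, moved that median by 0.24 to -0.02, and upper-quartile scaling moved it by 0.13. With median-ratio scaling 1388 genes (11.0%) rose and 895 (7.09%) fell, so the balance of rises and falls depends on the scaling. Counts after this scaling are given below beside each list whose counts it changes. The counts of every list are to be read beside the shares over all tested genes. These were 8.25% higher and 11.2% lower, or 11.0% and 7.09% after this scaling.

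**Figure D3:**
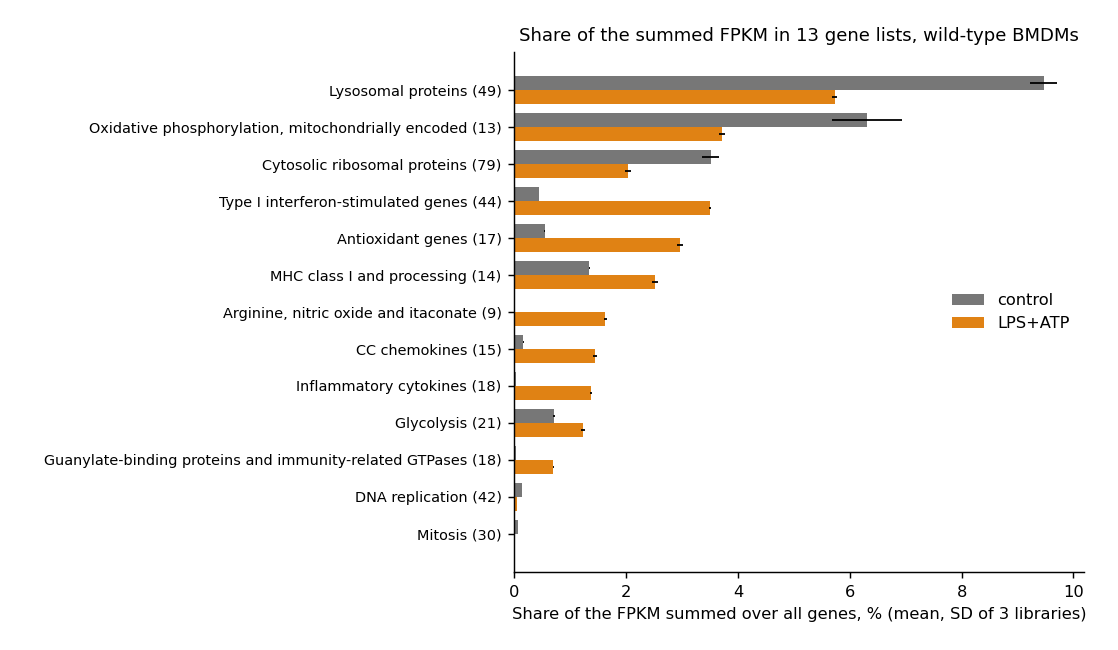
Share of the FPKM summed over all genes taken by 13 gene lists in wild-type control (grey) and LPS+ATP (orange) libraries, as mean bars from 0 with SD of 3 libraries and the number of genes in brackets. Type I interferon-stimulated genes went from 0.438% to 3.50% and antioxidant genes from 0.545% to 2.97%, whereas lysosomal protein genes went from 9.47% to 5.73% and mitochondrially encoded genes from 6.30% to 3.71%.

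**Figure D4:**
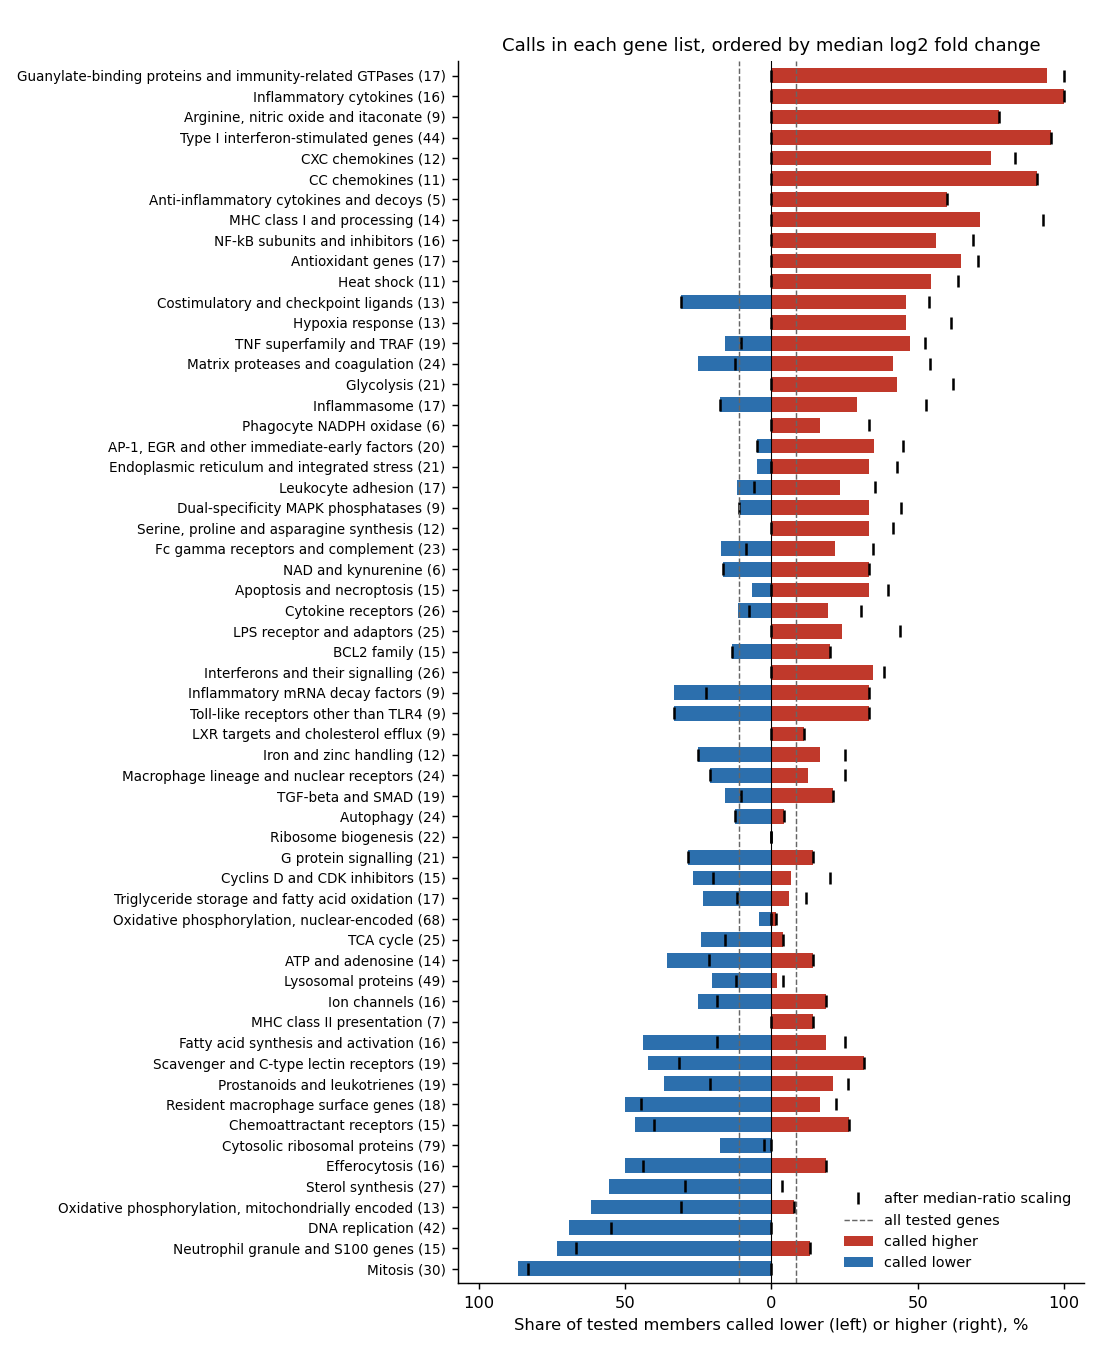
Percentage of the tested members of each gene list called higher (red, right) or lower (blue, left) with LPS+ATP in wild-type BMDMs, ordered by the list's median log2 fold change, with the number tested in brackets. Black ticks give the same after median-ratio scaling and dashed lines the share over all tested genes (8.25% higher, 11.2% lower). Inflammatory cytokines (16 of 16 higher) and mitosis genes (26 of 30 lower) lie at or next to the ends, and for sterol synthesis and ribosomal protein genes the black ticks fall far inside the blue bars.

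The coreceptor of the LPS receptor rose, as did genes that inhibit or sustain its signal. Of 25 tested genes of the receptor complex, its adaptors and kinases, 6 rose and 0 fell, against 8.25% and 11.2% of all tested genes, with a median log2 fold change of 0.22, and after median-ratio scaling 11 rose (median 0.52). Cd14, which hands LPS to the receptor, rose from 111 ± 2.23 to 530 ± 2.34 FPKM, whereas the receptor gene Tlr4 was uneven within both groups, at 16.7, 3.61 and 3.06 FPKM in control and 3.66, 2.43 and 11.8 FPKM with LPS+ATP (log2 fold change -0.23 ± 0.63), and its groups overlapped. Irak3, an inhibitory member of the IRAK kinase family, rose from 12.1 ± 0.285 to 54.8 ± 2.41 FPKM, Irak2, a kinase that sustains the signal, from 7.36 ± 2.56 to 18.2 ± 1.64 FPKM, and the ubiquitin ligase gene Peli1 from 3.94 ± 0.412 to 17.0 ± 1.06 FPKM. The adaptor gene Myd88 measured 27.5 ± 0.968 and 47.1 ± 1.237 FPKM and was called only after median-ratio scaling. Other Toll-like receptors moved both ways. Tlr2, which senses bacterial lipoproteins, rose from 29.2 ± 0.960 to 105 ± 2.49 FPKM, Tlr1, its partner, from 12.5 ± 2.65 to 36.6 ± 1.45 FPKM, and Tlr3, which senses double-stranded RNA, from 2.25 ± 0.504 to 10.6 ± 1.06 FPKM. The endosomal receptor genes Tlr8, Tlr9 and Tlr13 fell, Tlr13 from 131 ± 1.86 to 50.7 ± 2.22 FPKM.

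Genes grouped as inhibitors of NF-κB, with the nuclear cofactor gene Nfkbiz counted among them, rose more than its subunits. Of 11 inhibitor genes 8 rose (median log2 fold change 1.84 and 2.16 after median-ratio scaling), and of 5 subunit genes 1 rose, or 3 after that scaling (median 0.95). The difference between these groups was not tested. The subunit genes Relb (log2 fold change 0.948) and Nfkb1 (0.953) lay just under the fold limit and were called after that scaling. Tnfaip3, which encodes the ubiquitin-editing inhibitor A20, stood at 3.49, 7.52 and 7.38 FPKM in control and 68.7, 36.7 and 54.4 FPKM with LPS+ATP, so that the lowest stimulated library was far above the highest control. Nfkbia, the gene of IκBα, rose from 27.2 ± 1.10 to 175 ± 5.28 FPKM, Nfkbiz, the gene of the nuclear cofactor IκBζ, from 2.68 ± 0.158 to 19.1 ± 0.910 FPKM, and the subunit gene Nfkb2 from 18.0 ± 0.856 to 87.3 ± 1.44 FPKM. The subunit gene Rela measured 29.1 ± 0.763 and 41.1 ± 4.63 FPKM, and Rel 6.42 ± 0.248 and 6.77 ± 0.456 FPKM, neither of which passed. The letters GGGNNTTTC, a core of the NF-κB motif, were looked for on both strands of the RefSeq promoters (GRCm38.p6). Each promoter ran from 250 bases before to 50 bases after a gene's start, and a gene counted if any of its promoters matched. Of 13 matched genes of this list 6 held the letters (46.2%), but only 3 of the 8 that were called. They lay in 9.12% of 680 higher genes and 5.31% of all tested genes, and in 4.36% of the 32851 promoters counted singly. A match is a description of the letters and not a bound site. The promoter of Tnfaip3, the member with the motif that rose most, is shown with its matches in capitals (chr10:19015361-19015660, minus strand).
Tnfaip3: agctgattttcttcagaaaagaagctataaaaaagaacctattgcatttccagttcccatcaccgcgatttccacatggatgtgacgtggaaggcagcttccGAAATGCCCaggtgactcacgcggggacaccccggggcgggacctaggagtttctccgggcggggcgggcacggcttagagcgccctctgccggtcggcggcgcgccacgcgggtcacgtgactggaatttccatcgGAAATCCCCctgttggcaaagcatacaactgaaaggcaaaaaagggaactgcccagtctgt

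Immediate-early and feedback genes were mixed. Of 20 AP-1, EGR and related factors 7 rose and 1 fell, or 9 and 1 after median-ratio scaling (median log2 fold change 0.55 and 0.85 before and after it). Ier3, a stress-inducible survival gene, rose from 12.6 ± 1.80 to 134 ± 2.16 FPKM, Egr1, a zinc-finger factor, from 1.70 ± 0.0783 to 22.7 ± 0.855 FPKM, and Junb, a subunit of AP-1, from 41.6 ± 1.27 to 133 ± 5.03 FPKM. Cebpb, a factor of inflammatory and emergency granulopoietic genes, rose from 73.4 ± 1.18 to 394 ± 11.2 FPKM, but it overlaps Tmem189 on the opposite strand, and no source states that counting used strand. Klf2, a factor that restrains NF-κB, fell from 10.9 ± 0.387 to 2.79 ± 0.304 FPKM. Fos and Atf3 measured 12.36 ± 0.706 and 22.0 ± 1.91, and 111 ± 12.8 and 192 ± 17.8 FPKM, and were called only after median-ratio scaling. Of 9 tested phosphatases of MAP kinases 3 rose, Dusp16 from 1.41 ± 0.248 to 5.90 ± 0.221 FPKM, Dusp1 from 9.55 ± 0.107 to 27.1 ± 0.764 FPKM and Dusp4 from 12.8 ± 0.168 to 30.6 ± 1.238 FPKM, and 1 fell, or 4 and 1 after median-ratio scaling (median 0.44 and 0.63 before and after it). Among 9 genes that destabilize inflammatory transcripts 3 rose and 3 fell, or 2 after median-ratio scaling (median 0.04). Zc3h12a, the endonuclease Regnase-1, rose from 8.34 ± 0.559 to 38.9 ± 2.90 FPKM, whereas Zfp36l1 and Zfp36l2, binders of AU-rich elements, fell from 32.1 ± 1.61 to 4.13 ± 0.254 FPKM and from 74.7 ± 2.16 to 23.5 ± 0.120 FPKM.

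Every tested member of the inflammatory cytokine list rose. They numbered 16 of 16, with a median log2 fold change of 3.72 and 3.97 after median-ratio scaling, against -0.26 over all tested genes. The list held 19 genes, of which Il23a and Il33 did not reach the filter and Il36g was not matched. Members under 1 FPKM in all 3 control libraries, such as Il1b, Il6 and Il12b, could not have been called lower. Besides both interleukin-1 genes, Tnf, the gene of tumour necrosis factor, rose from 7.49 ± 0.516 to 572 ± 12.3 FPKM, Il12b, the shared subunit of interleukin-12 and interleukin-23, from 0.113 ± 0.104 to 36.9 ± 0.735 FPKM, and Il18, the other inflammasome substrate, from 9.69 ± 0.552 to 27.7 ± 0.956 FPKM. The control level of Il18 was thus well above that of Il1b, which was under 1 FPKM. Il6 stood at 0.0821, 0.0180 and 0.0337 FPKM in control and 42.0, 41.03 and 41.8 FPKM with LPS+ATP. Antagonists rose alongside. Il1rn, the interleukin-1 receptor antagonist, rose from 6.92 ± 0.311 to 149.6 ± 1.23 FPKM, Il18bp, the interleukin-18 binding protein, from 4.56 ± 0.527 to 31.4 ± 1.89 FPKM, and Il10, an anti-inflammatory cytokine, from 0.955 ± 0.269 to 5.33 ± 0.484 FPKM, making 3 of 5 tested members of that list. The promoter of Il6 is shown because it is the cytokine promoter with GGGNNTTTC whose gene rose most, and 3 of 12 matched cytokine genes held the letters (chr5:30012864-30013163, plus strand, match in capitals).
Il6: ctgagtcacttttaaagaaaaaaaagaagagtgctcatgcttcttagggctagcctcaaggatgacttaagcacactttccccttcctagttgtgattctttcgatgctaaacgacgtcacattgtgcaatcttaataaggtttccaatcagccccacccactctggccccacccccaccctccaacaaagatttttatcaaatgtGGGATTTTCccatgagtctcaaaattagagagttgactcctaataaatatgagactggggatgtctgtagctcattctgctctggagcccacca

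Of the receptors for cytokines some rose, and the share that fell was near that over all tested genes (11.2%, and 7.09% after median-ratio scaling). Of 26 tested 5 rose and 3 fell, or 8 and 2 after median-ratio scaling (median 0.23 and 0.44 before and after it). Tnfrsf1b, the second TNF receptor, rose from 198 ± 5.27 to 958 ± 11.2 FPKM, and Il15ra, which presents interleukin-15, from 1.31 ± 0.110 to 12.9 ± 1.49 FPKM. Ifngr1, the ligand-binding chain for interferon-γ, fell from 47.9 ± 1.92 to 10.3 ± 0.556 FPKM, and Il6ra from 11.3 ± 0.540 to 2.64 ± 0.124 FPKM. Csf1r, the receptor for the growth factor of the culture, measured 253 ± 5.16 and 178 ± 3.65 FPKM and did not pass the fold limit. In the TNF superfamily and its TRAF adaptors 9 of 19 rose and 3 fell, or 10 and 2 after median-ratio scaling, beside the shares over all tested genes of 8.25% higher and 11.2% lower, and 11.0% and 7.09% after that scaling. Cd40, a receptor engaged by helper T cells, rose from 1.82 ± 0.409 to 39.1 ± 1.15 FPKM, Traf1 from 2.77 ± 0.285 to 30.6 ± 0.908 FPKM and the death receptor gene Fas from 5.29 ± 0.572 to 19.5 ± 0.193 FPKM. Tnfsf12 and Tnfsf13, the genes of TWEAK and APRIL, fell from 58.5 ± 1.71 to 10.8 ± 1.02 FPKM and from 10.2 ± 1.57 to 0.941 ± 0.142 FPKM, but they overlap each other and the readthrough gene Tnfsfm13, so their reads may be split.

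Chemokine genes rose almost throughout, and receptors for chemoattractants moved both ways. Of 12 CXC chemokine genes 9 rose, or 10 after median-ratio scaling (median log2 fold change 2.39 and 2.64 before and after it), and of 11 CC genes 10 rose (median 2.11 and 2.43 after median-ratio scaling), with none lower in either list. Cxcl1, Cxcl2, Cxcl3 and Cxcl9 had control means under 1 FPKM and so could not have been called lower. The neutrophil attractants Cxcl2, Cxcl3 and Cxcl1 rose from 0.624 ± 0.163 to 148 ± 2.33 FPKM, from 0.110 ± 0.0324 to 76.8 ± 1.93 FPKM and from 0.669 ± 0.0803 to 53.4 ± 1.304 FPKM. Cxcl10, a ligand of CXCR3, rose from 1.90 ± 0.118 to 455 ± 8.34 FPKM, and Cxcl9, another, stood at 0.557, 0.507 and 0.797 FPKM in control and 175, 192 and 189.9 FPKM with LPS+ATP. Ccl2, the main ligand of CCR2, rose from 34.5 ± 0.414 to 599 ± 16.0 FPKM, Ccl3 from 56.0 ± 0.952 to 1055 ± 49.4 FPKM, Ccl4 from 35.2 ± 2.65 to 156 ± 3.98 FPKM and Ccl7 from 25.9 ± 1.94 to 272 ± 2.65 FPKM. Ccl3 and Ccl2 were above 30 FPKM in control already, in contrast to Cxcl9 and the neutrophil attractants. The promoter of Cxcl9 is shown as the CXC promoter with GGGNNTTTC of the gene that rose most, in a list in which 4 of 9 matched genes held it (chr5:92328030-92328329, minus strand, match in capitals).
Cxcl9: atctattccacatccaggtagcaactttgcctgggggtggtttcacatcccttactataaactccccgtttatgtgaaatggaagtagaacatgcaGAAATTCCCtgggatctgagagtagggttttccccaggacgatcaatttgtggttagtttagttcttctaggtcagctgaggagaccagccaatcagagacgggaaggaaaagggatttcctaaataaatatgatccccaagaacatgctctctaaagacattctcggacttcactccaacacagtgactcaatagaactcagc

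Among 15 tested receptors for chemoattractants 4 rose and 7 fell, or 4 and 6 after median-ratio scaling (median -0.81 and -0.50 before and after it). The formyl peptide receptor genes Fpr1 and Fpr2 rose from 5.47 ± 1.38 to 501 ± 16.1 FPKM and from 3.29 ± 0.468 to 410.3 ± 8.002 FPKM, and Ccrl2, a chemerin-binding receptor, from 5.19 ± 0.350 to 129 ± 3.78 FPKM. Cxcr4, the CXCL12 receptor that retains cells in bone marrow, stood at 66.5, 64.5 and 66.1 FPKM in control and 2.97, 4.12 and 3.72 FPKM with LPS+ATP. The fractalkine receptor gene Cx3cr1 fell from 3.81 ± 0.345 to 0.513 ± 0.0765 FPKM, Ccr2 from 2.06 ± 0.505 to 0.103 ± 0.0373 FPKM and the anaphylatoxin receptor genes C5ar1 and C3ar1 from 130.4 ± 0.821 to 37.5 ± 1.59 FPKM and from 279 ± 13.1 to 94.97 ± 4.69 FPKM. Receptors for bacterial peptides and receptors for complement fragments thus moved in opposite directions.

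Nlrp3 and both inflammatory caspase genes rose, and the adaptor gene of the inflammasome fell. Of 17 tested members 5 rose and 3 fell, against 8.25% and 11.2% of all tested genes (median log2 fold change 0.71), and after median-ratio scaling 9 rose (median 1.02). Nlrp3 rose from 9.68 ± 0.425 to 32.9 ± 0.801 FPKM (log2 fold change 1.67 ± 0.04, limma adjusted p = 2.3e-11), Casp1, the caspase it activates, from 22.8 ± 1.88 to 84.6 ± 2.84 FPKM, and Casp4, the intracellular LPS sensor known in mice as caspase-11, from 4.21 ± 0.399 to 32.3 ± 1.12 FPKM. Pycard, the gene of the adaptor ASC, stood at 12.99, 13.7 and 15.2 FPKM in control and 4.55, 5.0 and 4.84 FPKM with LPS+ATP. Gsdmd, which forms the pore of pyroptosis, measured 35.3 ± 2.31 and 58.4 ± 0.755 FPKM and was called only after median-ratio scaling. The pyrin gene Mefv rose from 7.44 ± 0.595 to 26.5 ± 0.826 FPKM, Nlrp1b, an anthrax lethal toxin sensor, fell from 8.78 ± 0.769 to 0.380 ± 0.0618 FPKM, and Txnip, a thioredoxin-binding protein described as an NLRP3 ligand, fell from 93.9 ± 16.1 to 24.8 ± 4.19 FPKM.

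The ATP receptor gene P2rx7 fell, while Adora2a and Adora2b, genes of receptors for the ATP breakdown product adenosine, rose. P2rx7, the ATP-gated channel upstream of NLRP3, stood at 12.1, 12.3 and 18.1 FPKM in control and 4.57, 5.0 and 4.43 FPKM with LPS+ATP. Entpd1, the ecto-enzyme CD39 that degrades ATP, fell from 43.3 ± 3.69 to 5.59 ± 0.417 FPKM. The adenosine receptor genes Adora2a and Adora2b rose from 0.752 ± 0.0693 to 27.1 ± 1.35 FPKM and from 1.96 ± 0.199 to 33.3 ± 1.71 FPKM, and P2rx4 measured 27.4 ± 0.441 and 27.9 ± 1.02 FPKM. Of 14 tested genes of the list 2 rose and 5 fell, or 2 and 3 after median-ratio scaling. Among 16 ion channel genes 3 rose and 4 fell, or 3 and 3 after median-ratio scaling. Over all tested genes 8.25% rose and 11.2% fell, or 11.0% and 7.09% after that scaling. The potassium channel genes Kcnk13, Kcnk6 and Kcnj2 fell from 13.2 ± 1.49 to 4.10 ± 0.212 FPKM, from 10.48 ± 0.350 to 2.86 ± 0.166 FPKM and from 8.44 ± 0.760 to 1.15 ± 0.150 FPKM, whereas Kcna3 rose from 0.884 ± 0.0346 to 8.74 ± 0.777 FPKM and the chloride channel gene Clic4 from 54.1 ± 0.804 to 162 ± 0.464 FPKM.

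Genes of necroptosis and a few genes that oppose apoptosis rose. Zbp1, a sensor of Z-form nucleic acids that engages RIPK3, rose from 6.99 ± 0.807 to 118 ± 0.343 FPKM, Mlkl, the executioner of necroptosis, from 10.9 ± 0.579 to 102 ± 1.68 FPKM, and Cflar, the caspase-8 inhibitor c-FLIP, from 7.43 ± 0.255 to 66.0 ± 0.874 FPKM. The list counted 5 higher and 1 lower of 15, or 6 and 0 after median-ratio scaling. In the BCL2 family 3 of 7 pro-survival genes rose and 2 of 8 pro-death genes fell. The 3 were Bcl2a1a, Bcl2a1d and Bcl2a1b, near copies of each other whose separate levels are uncertain, and the 2 were Bcl2l11, the gene of BIM (from 9.82 ± 0.254 to 2.71 ± 0.197 FPKM), and Bmf (from 2.88 ± 0.187 to 0.403 ± 0.0401 FPKM). Mcl1, the most abundant of the family, measured 261 ± 10.4 and 300.4 ± 1.25 FPKM without passing.

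Nearly all interferon-stimulated genes rose. Of 44 members 42 rose and 0 fell, before and after median-ratio scaling, with a median log2 fold change of 2.98 and 3.29 after median-ratio scaling. The exceptions, Ifi207 and Ifi27l2a, are named after their values were seen and measured 62.8 ± 2.91 and 68.4 ± 2.495, and 46.04 ± 3.04 and 43.4 ± 4.60 FPKM. Rsad2, the gene of the antiviral enzyme viperin, stood at 10.7, 10.4 and 9.503 FPKM in control and 896, 893 and 920 FPKM with LPS+ATP. Isg15, a ubiquitin-like modifier, rose from 14.2 ± 1.95 to 934 ± 29.3 FPKM, Ifit1, a binder of foreign RNA caps, from 9.86 ± 1.01 to 443 ± 3.56 FPKM, and Cmpk2, a mitochondrial nucleotide kinase next to Rsad2, from 5.47 ± 0.387 to 282 ± 1.52 FPKM. Ifit3 (from 16.6 ± 0.480 to 484 ± 19.3 FPKM) shares sequence with Ifit3b, and Slfn4 (from 1.82 ± 0.141 to 267 ± 18.3 FPKM) with Slfn3, so their separate levels are uncertain. The letters GAAANNGAA, from the interferon-stimulated response element, lay in 21 of 35 matched genes of the list (60.0%). They lay in 18.8% of higher genes, in 8.01% of lower genes and in 9.05% of all tested genes. GGGNNTTTC lay in none of the same promoters. The Rsad2 promoter is shown as that of the member with the element that rose most (chr12:26456403-26456702, minus strand, match in capitals).
Rsad2: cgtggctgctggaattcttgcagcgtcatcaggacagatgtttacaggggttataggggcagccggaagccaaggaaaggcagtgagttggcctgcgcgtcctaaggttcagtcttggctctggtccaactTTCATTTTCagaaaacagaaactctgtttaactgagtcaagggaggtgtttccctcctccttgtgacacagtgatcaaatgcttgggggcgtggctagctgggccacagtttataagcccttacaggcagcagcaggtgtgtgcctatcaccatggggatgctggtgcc

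Signalling genes of the interferon pathway rose in part. Of 26 tested 9 rose and 0 fell, or 10 and 0 after median-ratio scaling (median 0.10 and 0.40 before and after it). The interferon genes of the list, Ifnb1 and Ifna4, did not reach the filter and were not tested. Ifnb1 was at 0 in the control libraries and at 0.407, 0.292 and 0.708 FPKM with LPS+ATP. Irf7, the amplifier of interferon-α, rose from 10.3 ± 0.445 to 222 ± 4.57 FPKM, Irf1 from 13 ± 1.35 to 94.8 ± 26.0 FPKM, Stat2 from 13.4 ± 0.573 to 67.7 ± 0.839 FPKM and the kinase gene Jak2 from 12.9 ± 0.689 to 105 ± 3.19 FPKM. The feedback inhibitor genes Usp18, Socs1 and Socs3 rose from 5.96 ± 0.679 to 151 ± 1.62 FPKM, from 0.584 ± 0.130 to 28.4 ± 0.876 FPKM and from 8.87 ± 0.560 to 159 ± 1.22 FPKM. Irf8 measured 14.6 ± 0.411 and 14.8 ± 4.46 FPKM and was not called.

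The guanylate-binding proteins and immunity-related GTPases, which attack vacuoles that hold microbes, rose in 16 of 17 tested members, and in 17 after median-ratio scaling (median 3.94 and 4.20 before and after it). Gbp2 rose from 16.3 ± 0.726 to 695 ± 6.59 FPKM, Gbp5 from 1.22 ± 0.196 to 163 ± 8.58 FPKM, Iigp1 from 1.495 ± 0.0490 to 89.4 ± 1.57 FPKM and Irgm1 from 13.9 ± 0.761 to 104 ± 5.21 FPKM. Gbp6 with Gbp10, and Tgtp1 with Tgtp2, are near copies, so only their joint rise can be read. GAAANNGAA lay in 9 of 10 matched members, and GGGNNTTTC in 3.

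Genes of MHC class I presentation rose and those of class II mostly did not. Of 14 class I genes 10 rose, 13 after median-ratio scaling (median 1.63 and 1.94 before and after it). Tap1, the peptide transporter, rose from 13.6 ± 1.14 to 90.1 ± 1.47 FPKM, Psmb8, an immunoproteasome subunit, from 22.2 ± 1.25 to 82.8 ± 1.32 FPKM, Tapbp, the gene of tapasin, from 74.8 ± 2.29 to 341 ± 12.7 FPKM, and Nlrc5, the transactivator of class I genes, from 6.09 ± 0.227 to 31.1 ± 1.13 FPKM. The class I heavy chain gene H2-D1 was at 1124 ± 31.2 and 1231 ± 20.8 FPKM. Of 7 class II genes 1 rose and 0 fell (median -0.59 and -0.31 after median-ratio scaling). That one was H2-Ab1 (from 8.13 ± 0.814 to 23.2 ± 0.145 FPKM), whose pairing chain gene H2-Aa measured 4.63 ± 0.220 and 2.75 ± 0.0813 FPKM and the invariant chain gene Cd74 45.5 ± 1.42 and 31.5 ± 0.429 FPKM. Costimulatory and checkpoint ligands split, with 6 of 13 higher and 4 lower, or 7 and 4 after median-ratio scaling. Cd274, the gene of PD-L1, rose from 32.2 ± 1.58 to 649 ± 10.2 FPKM, and Cd86, a ligand of CD28, from 9.30 ± 0.561 to 25.9 ± 0.845 FPKM, whereas Cd80, the other such ligand, measured 4.12 ± 0.106 and 3.21 ± 0.187 FPKM. Vsir, the gene of the checkpoint protein VISTA, fell from 43.8 ± 7.08 to 3.96 ± 0.671 FPKM, and Cd83 from 19.1 ± 0.643 to 3.96 ± 0.431 FPKM.

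The enzymes of nitric oxide, arginine and itaconate metabolism rose together, 7 of 9 with none lower (median log2 fold change 3.03 and 3.30 after median-ratio scaling). Beside Nos2, Acod1 and Slc7a2, Ass1, which rebuilds arginine from citrulline, rose from 9.81 ± 0.405 to 168 ± 2.61 FPKM, although it has the near copy Gm5424. Arg1, the arginase that competes with Nos2 for arginine, rose from 1.14 ± 0.0896 to 16.4 ± 0.386 FPKM, and its level stayed far under that of Nos2 (1004 ± 14.98 FPKM), both being levels per length. The summed share of these 9 genes went from 0.0155% ± 0.000188 to 1.63% ± 0.0301 of the summed FPKM.

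Glucose and lactate transporters were among the glycolysis genes that rose most. Of 21 members 9 rose and 0 fell, and 13 rose after median-ratio scaling (median 0.78 and 1.10 before and after it). The glucose transporter genes Slc2a1 and Slc2a6 rose from 17.4 ± 0.857 to 81.8 ± 2.17 FPKM and from 12.1 ± 0.840 to 90.7 ± 3.06 FPKM, Hk2, a hexokinase, from 12.1 ± 0.330 to 29.5 ± 0.806 FPKM, Pfkfb3, which makes the activator of phosphofructokinase, from 8.59 ± 3.11 to 34.1 ± 4.84 FPKM, and Slc16a3, the lactate exporter, from 17.2 ± 0.968 to 63.9 ± 2.09 FPKM. Gapdh measured 268 ± 5.63 and 341 ± 62.6 FPKM and did not pass. Hypoxia-response genes moved alongside, with 6 of 13 higher and 0 lower, or 8 and 0 after median-ratio scaling (median 0.95 and 1.23 before and after it). Ero1l, an oxidase of the endoplasmic reticulum, rose from 13.3 ± 1.89 to 86.7 ± 2.99 FPKM, Egln3, a prolyl hydroxylase of HIF, stood at 4.55, 5.04 and 4.88 FPKM in control and 25.9, 26.2 and 27.2 FPKM with LPS+ATP, and Hif1a itself was called only after median-ratio scaling (from 28 ± 2.43 to 53.5 ± 1.34 FPKM). ACGTG, the core of the hypoxia response element, which also lies within the E-box CACGTG, was found in 9 of 11 matched hypoxia genes (81.8%) and in 29.6% of all tested genes. The promoter of Egln3, the higher member with ACGTG that changed most among those given a window, is shown with the match in capitals (chr12:54203825-54204124, minus strand).
Egln3: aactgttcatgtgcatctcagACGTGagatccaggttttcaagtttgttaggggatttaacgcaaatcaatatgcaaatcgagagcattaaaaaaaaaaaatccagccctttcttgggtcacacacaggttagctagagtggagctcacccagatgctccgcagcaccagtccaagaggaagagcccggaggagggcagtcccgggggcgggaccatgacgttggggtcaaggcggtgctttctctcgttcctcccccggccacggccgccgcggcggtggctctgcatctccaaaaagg

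In a list of tricarboxylic acid cycle genes and related enzymes a few members fell and 1 rose. Of 25 members 1 rose and 6 fell, or 4 after median-ratio scaling (median -0.52 and -0.24 before and after it). Pcx, which makes oxaloacetate from pyruvate, rose from 1.74 ± 0.137 to 12.1 ± 0.504 FPKM. Idh1 and Idh2, genes of NADP-dependent isocitrate dehydrogenases, fell from 82.6 ± 17.2 to 25.4 ± 0.656 FPKM and from 26.1 ± 0.244 to 7.82 ± 0.387 FPKM. Mdh1, the gene of the cytosolic malate dehydrogenase, fell from 47.8 ± 6.08 to 15.2 ± 0.814 FPKM. Sdha, the succinate dehydrogenase subunit, measured 64.6 ± 2.45 and 32.2 ± 0.382 FPKM, just short of the fold limit. Of 68 nuclear genes of oxidative phosphorylation 1 rose and 3 fell, none of the latter after median-ratio scaling (median -0.49 and -0.20 before and after it). The one that rose was Cycs (from 11.1 ± 0.188 to 32.1 ± 0.530 FPKM), which has the near copy Gm10053. Of 13 mitochondrially encoded genes 8 fell, 4 after that scaling, and 1 rose. mt-Nd1 fell from 1197 ± 173 to 436 ± 20.9 FPKM and mt-Cytb from 1753 ± 136 to 669 ± 46.2 FPKM. mt-Atp6 went the other way (from 268 ± 16.0 to 877 ± 1.65 FPKM), but shares its sequence with the nuclear copy Gm10925, and reads can be split between the pair.

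Sterol synthesis genes fell, although much of this depended on the scaling. Of 20 enzymes 13 fell and 0 rose (median log2 fold change -1.12), and 7 fell after median-ratio scaling (median -0.84). Dhcr7, which acts at the end of the pathway, fell from 9.58 ± 1.16 to 1.92 ± 0.362 FPKM, and Sqle, the squalene epoxidase, from 17.1 ± 1.02 to 4.76 ± 0.419 FPKM. Hmgcs1, the synthase at the start, stood at 42.5, 43.2 and 38.1 FPKM in control and 14.01, 12.3 and 11.9 FPKM with LPS+ATP. CCAAT, the letters bound by NF-Y, lay in 89.5% of 19 matched sterol genes and 42.9% of all tested genes, and the sterol element letters TCACNCCAC in 1 of them, Hmgcs1, whose promoter is therefore shown (chr13:119690101-119690400, plus strand, TCACNCCAC in capitals on either strand).
Hmgcs1: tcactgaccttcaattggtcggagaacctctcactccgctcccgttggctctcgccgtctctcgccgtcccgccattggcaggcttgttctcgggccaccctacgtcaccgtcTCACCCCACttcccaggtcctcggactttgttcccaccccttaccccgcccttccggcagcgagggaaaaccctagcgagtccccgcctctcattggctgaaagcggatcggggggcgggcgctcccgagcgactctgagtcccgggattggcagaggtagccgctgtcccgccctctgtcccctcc

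Genes of lipid handling moved both ways. Ch25h, which makes 25-hydroxycholesterol, rose from 1.02 ± 0.0459 to 46.4 ± 2.23 FPKM and was the 1 of 9 liver X receptor and efflux genes to rise, with 0 lower. The efflux pump gene Abca1 measured 26.5 ± 0.484 and 40.4 ± 0.891 FPKM, and Apoe 944 ± 98.5 and 533 ± 37.95 FPKM, neither past the fold limit. Of 16 fatty acid genes 3 rose and 7 fell, or 4 and 3 after median-ratio scaling. The acyl-CoA synthetase gene Acsl1 rose from 7.45 ± 0.141 to 150.2 ± 10.4 FPKM, while the elongase genes Elovl5 and Elovl6 fell from 23.4 ± 1.28 to 7.96 ± 0.585 FPKM and from 1.97 ± 0.256 to 0.164 ± 0.0950 FPKM. Lpl, the lipoprotein lipase, fell from 179.6 ± 16.7 to 27.2 ± 0.214 FPKM. Enzymes of prostaglandins and leukotrienes moved both ways. Ptgs2, the inducible cyclooxygenase, rose from 0.327 ± 0.138 to 245 ± 1.71 FPKM and Ptges, which makes prostaglandin E, from 1.67 ± 0.234 to 420.5 ± 34.6 FPKM, with the phospholipase gene Pla2g4a from 5.76 ± 0.282 to 23.3 ± 0.382 FPKM. Alox5 and its activating protein gene Alox5ap fell from 3.84 ± 0.648 to 0.482 ± 0.0530 FPKM and from 236 ± 9.77 to 79.7 ± 0.979 FPKM, and Hpgds, which makes prostaglandin D, from 29.98 ± 3.07 to 3.31 ± 0.406 FPKM. Of 13 such enzymes 3 rose and 6 fell, or 4 and 4 after median-ratio scaling.

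Antioxidant genes rose as a group, 11 of 17 with 0 lower, or 12 higher after median-ratio scaling (median log2 fold change 1.46 and 1.78 before and after it). Hmox1, which degrades heme, stood at 423, 437 and 444 FPKM in control and 4793, 4790 and 4971 FPKM with LPS+ATP, a 11.2-fold higher mean at one of the highest levels in the libraries. Slc7a11, the cystine importer, rose from 2.35 ± 0.291 to 96.95 ± 1.235 FPKM, Sod2, the mitochondrial superoxide dismutase, from 5.01 ± 0.190 to 108 ± 2.28 FPKM, and Prdx5, a peroxiredoxin, from 57.3 ± 4.78 to 400.2 ± 6.65 FPKM. Srxn1, the sulfiredoxin that repairs peroxiredoxins, stood at 49.9, 51.5 and 51.3 FPKM in control and 225, 236 and 227 FPKM with LPS+ATP. The antioxidant element letters TGACNNNGC lay in 7 of 14 matched members against 17.3% of all tested genes, and the Srxn1 promoter is shown with its match in capitals (chr2:152105274-152105573, plus strand).
Srxn1: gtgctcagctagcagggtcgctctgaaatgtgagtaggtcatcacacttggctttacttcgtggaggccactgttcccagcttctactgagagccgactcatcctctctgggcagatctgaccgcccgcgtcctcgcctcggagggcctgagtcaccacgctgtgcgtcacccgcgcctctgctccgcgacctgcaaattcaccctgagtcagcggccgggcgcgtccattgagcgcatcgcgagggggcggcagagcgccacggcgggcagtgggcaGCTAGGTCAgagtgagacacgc

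Genes of oxidant production and metals moved less. Cybb, the catalytic subunit of the phagocyte NADPH oxidase, rose from 252 ± 11.6 to 701 ± 9.35 FPKM and was the 1 of 6 subunit genes to pass, or 2 after median-ratio scaling. In iron and zinc handling 2 of 12 rose and 3 fell, or 3 and 3 after median-ratio scaling. The shares over all tested genes were 8.25% and 11.2%, or 11.0% and 7.09% after that scaling. Slc40a1, the iron exporter ferroportin, fell from 20.4 ± 0.763 to 7.20 ± 0.122 FPKM, Tfrc, the transferrin receptor, from 37.6 ± 2.01 to 12.7 ± 0.276 FPKM, and Steap3, an endosomal ferrireductase, from 14.04 ± 0.646 to 1.36 ± 0.182 FPKM, whereas the ferritin gene Fth1 measured 2563 ± 405 and 3108 ± 79.3 FPKM. Both the export and the uptake gene of iron were thus lower. Cd38, an ecto-enzyme that consumes NAD, rose from 2.99 ± 0.384 to 176 ± 2.45 FPKM, and Nampt, which recycles it, from 39.2 ± 2.06 to 152 ± 2.31 FPKM. Asns, the asparagine synthetase, rose from 7.37 ± 0.203 to 30.4 ± 2.63 FPKM and Mthfd2, a mitochondrial folate enzyme, from 5.74 ± 0.321 to 30.5 ± 1.34 FPKM, among 4 higher and 0 lower of 12 serine, proline and asparagine genes, or 5 and 0 after median-ratio scaling.

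Stress genes of the integrated stress response and the cytosolic heat shock response rose, and the endoplasmic reticulum chaperone gene Hspa5 passed only after median-ratio scaling. Of 21 reticulum and integrated stress genes 7 rose and 1 fell, or 9 and 0 after median-ratio scaling (median 0.52 and 0.83 before and after it). Atf4, the factor of the integrated stress response, rose from 45.1 ± 9.47 to 139 ± 25.5 FPKM, its target Ddit3 from 12.5 ± 0.762 to 33.3 ± 1.12 FPKM, and Ppp1r15a, the phosphatase subunit that ends it, from 10.7 ± 0.601 to 40.9 ± 3.63 FPKM. Hspa5, the chaperone BiP, measured 182 ± 2.08 and 316 ± 4.40 FPKM and was called only after that scaling. Xbp1 measured 24.3 ± 0.448 and 26.1 ± 1.31 FPKM and was not called. Of 11 heat shock genes 6 rose and 0 fell, or 7 and 0 after median-ratio scaling (median 1.21 and 1.52 before and after it). Hsph1 rose from 5.07 ± 0.599 to 24.6 ± 0.574 FPKM and Hspa1a from 1.18 ± 0.135 to 155 ± 2.58 FPKM, the latter a near copy of Hspa1b, which measured 1.17 ± 0.0502 and 153 ± 1.75 FPKM.

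Lysosomal genes, which held 9.47% ± 0.242 of the summed FPKM in control and 5.73% ± 0.0459 with LPS+ATP, fell in part. Of 49 members 1 rose and 10 fell, or 2 and 6 after median-ratio scaling (median log2 fold change -0.57 and -0.25 before and after it), beside 11.2% and 7.09% lower over all tested genes. The proton pump subunit genes Atp6v0a1 and Atp6v0d2 fell from 59.4 ± 1.49 to 8.42 ± 0.107 FPKM and from 77.5 ± 5.72 to 16.7 ± 0.794 FPKM, and the hydrolase genes Galc, Hexa and Lipa from 9.24 ± 0.370 to 1.31 ± 0.0914 FPKM, from 506 ± 7.84 to 172 ± 3.995 FPKM and from 271 ± 10.51 to 92.2 ± 1.81 FPKM. Ctsc, which activates serine proteases, rose from 57.7 ± 2.91 to 149 ± 5.997 FPKM. The most abundant cathepsin genes Ctsd, Ctsb and Ctss measured 6182 ± 123 and 3258 ± 84.5, 2720 ± 51.5 and 1446 ± 67.0, and 3067 ± 101 and 2484 ± 78.9 FPKM and did not pass the fold limit. Tfeb, the factor that drives lysosomal genes, fell from 9.31 ± 0.864 to 1.97 ± 0.190 FPKM. In the autophagy list 1 of 24 rose, the adaptor gene Sqstm1 (from 200 ± 4.27 to 936 ± 16.0 FPKM), and 3 fell.

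Receptors for uptake and complement genes moved both ways. Of 19 scavenger and C-type lectin receptor genes 6 rose and 8 fell, or 6 after median-ratio scaling. Clec4e, the mycobacterial glycolipid receptor Mincle, rose from 11.4 ± 0.184 to 621 ± 27.1 FPKM and Marco, a scavenger receptor for bacteria, from 8.93 ± 0.828 to 203 ± 4.64 FPKM. Mrc1, the mannose receptor, fell from 95.5 ± 2.83 to 13.98 ± 0.608 FPKM and Cd36, a receptor for oxidized lipids, from 141 ± 5.45 to 55.0 ± 0.494 FPKM. Among Fc receptors Fcgr1, the high-affinity receptor, rose from 51.2 ± 1.17 to 204 ± 3.46 FPKM and Fcgr4 from 40.4 ± 2.02 to 97.1 ± 3.40 FPKM, and Fcgr3 fell from 424 ± 8.13 to 171 ± 28.3 FPKM, although it shares sequence with Fcgr2b. In complement Cfb, of the alternative pathway, rose from 8.16 ± 0.698 to 1053 ± 13.2 FPKM and C3 from 25.0 ± 1.34 to 127 ± 2.81 FPKM, whereas C1qc fell from 239.7 ± 12.5 to 92.4 ± 3.80 FPKM and C1qb from 768 ± 28.03 to 323 ± 4.29 FPKM, the latter not called after median-ratio scaling.

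Clearance of dying cells was among the lower lists. Of 16 tested genes 3 rose and 8 fell, or 7 after median-ratio scaling (median log2 fold change -1.08 and -0.77 before and after it). Beside Gas6, Trem2, a lipid receptor, fell from 125 ± 5.65 to 18.2 ± 1.49 FPKM, its signalling adaptor gene Tyrobp from 536 ± 50.6 to 183 ± 8.53 FPKM, and the integrin gene Itgb5 from 71.6 ± 2.65 to 18.6 ± 0.771 FPKM. Axl, one GAS6 receptor, rose from 25.9 ± 0.606 to 78.3 ± 2.83 FPKM, and Mertk, another, measured 32.4 ± 0.172 and 18.9 ± 0.319 FPKM without passing. The ligand therefore fell where one of its receptors rose. Among adhesion genes 4 of 17 rose and 2 fell, or 6 and 1 after median-ratio scaling, and the share that fell was near that over all tested genes (11.2% and 7.09%). Icam1, a ligand of leukocyte integrins, rose from 16.6 ± 0.644 to 142 ± 3.83 FPKM and Itga5, the fibronectin receptor chain, from 30.8 ± 1.06 to 158 ± 2.298 FPKM. Of 24 matrix and coagulation genes 10 rose and 6 fell, or 13 and 3 after median-ratio scaling. Procr, the protein C receptor, rose from 4.93 ± 0.457 to 225 ± 10.1 FPKM, F10, coagulation factor X, from 14.1 ± 0.458 to 299 ± 12.8 FPKM, and Mmp13, a collagenase, from 25.2 ± 2.12 to 246 ± 2.24 FPKM. Timp2, an inhibitor of such proteases, fell from 185 ± 3.49 to 24.9 ± 0.662 FPKM.

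Genes of neutrophil granules and S100 proteins were mostly lower, 11 of 15, with 2 higher, or 10 and 2 after median-ratio scaling (median log2 fold change -1.53 and -1.42 before and after it). Ngp and Ltf, granule proteins of neutrophil precursors, fell from 96.3 ± 4.41 to 17.6 ± 1.42 FPKM and from 13.2 ± 0.641 to 0.745 ± 0.0961 FPKM, and S100a4, which macrophages also express, from 336 ± 34.99 to 75.6 ± 4.69 FPKM. Lcn2, which binds bacterial siderophores, and Slpi, a protease inhibitor, rose from 9.96 ± 0.268 to 218 ± 3.88 FPKM and from 63.4 ± 2.93 to 523 ± 21.2 FPKM, and both are also induced in macrophages. The neutrophil markers given above fell in sum over the same libraries, and the part of neutrophil-lineage cells in these falls was not tested.

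Factors and surface genes of macrophage identity were uneven. Maf, a factor of differentiated macrophages, fell from 49.6, 39.97 and 42.2 FPKM in the control libraries to 7.57, 7.45 and 7.72 FPKM in the LPS+ATP libraries. Pparg, a nuclear receptor for lipids, fell from 11.1 ± 0.333 to 0.303 ± 0.0979 FPKM. Cebpa, a myeloid factor, stood at 39.6, 39.8 and 40.9 FPKM in control and at 1.10, 14.5 and 16.3 FPKM with LPS+ATP, where 1 library was far under the others, and its log2 fold change of -2.31 was -1.33 without that library. Spi1, the gene of PU.1, measured 90.7 ± 3.65 and 99.8 ± 1.55 FPKM and was not called. The Maf and Pparg libraries stood far apart between states, whereas those of the lineage factor Spi1 stayed close. Absence of overlap between the states was common, at 78.1% of all tested genes. The list had 3 higher and 5 lower of 24, or 6 higher after median-ratio scaling. Of all tested genes 8.25% were higher and 11.2% lower, or 11.0% and 7.09% after median-ratio scaling. Of 18 surface genes of tissue-resident macrophages 3 rose and 9 fell, or 4 and 8 after that scaling. Gpr34 fell from 8.21 ± 0.172 to 0.0358 ± 0.0354 FPKM and Selenop, a selenium carrier, from 788 ± 34.8 to 97.3 ± 0.473 FPKM, whereas Siglec1, a sialic acid receptor, rose from 34.4 ± 0.598 to 86.9 ± 3.30 FPKM.

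G protein signalling genes included some of the largest changes outside the immune lists. Gpr84, a receptor for medium-chain fatty acids, rose from 2.97 ± 0.151 to 132 ± 3.24 FPKM and Hcar2, the receptor for niacin and ketone bodies, from 1.42 ± 0.324 to 53.1 ± 0.990 FPKM. Rgs2 and Rgs10, which speed the hydrolysis of GTP by Gα subunits, fell from 34.5 ± 2.02 to 3.62 ± 0.377 FPKM and from 43.8 ± 3.08 to 4.83 ± 0.700 FPKM, and the Gα subunit gene Gna12 from 80.7 ± 2.97 to 14.7 ± 0.306 FPKM. The list counted 3 higher and 6 lower of 21, unchanged in number by median-ratio scaling. Inhba, a subunit of activin A, rose from 1.235 ± 0.0792 to 133 ± 0.493 FPKM, the largest of 4 rises among 19 TGF-β family genes. Tgfbr2, the ligand-binding receptor, fell from 33.5 ± 0.147 to 6.13 ± 0.252 FPKM, one of 3 falls there, or 2 after median-ratio scaling. Over all tested genes 8.25% rose and 11.2% fell, or 11.0% and 7.09% after that scaling.

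Genes of DNA synthesis fell. Of 42 replication genes 29 fell and 0 rose (median log2 fold change -1.23 and -1.02 after median-ratio scaling), and 23 fell after median-ratio scaling, against 11.2% and 7.09% of all tested genes. Rrm2, a ribonucleotide reductase subunit, fell from 12.2 ± 0.233 to 1.22 ± 0.265 FPKM, and Mcm5, of the replicative helicase, from 14.6 ± 1.03 to 2.44 ± 0.247 FPKM. Mcm7, another helicase subunit, stood at 8.81, 8.82 and 8.90 FPKM in control and 1.21, 1.21 and 1.305 FPKM with LPS+ATP. The sliding clamp gene Pcna fell from 109 ± 0.992 to 33.7 ± 1.04 FPKM, but has the near copy Pcna-ps2. The E2F letters TTTCCCGC lay in 6 of 33 matched replication genes (18.2%) and 2.36% of all tested genes, and the promoter of Mcm7, the lower member with them that changed most, is shown with the match in capitals (chr5:138171834-138172133, minus strand).
Mcm7: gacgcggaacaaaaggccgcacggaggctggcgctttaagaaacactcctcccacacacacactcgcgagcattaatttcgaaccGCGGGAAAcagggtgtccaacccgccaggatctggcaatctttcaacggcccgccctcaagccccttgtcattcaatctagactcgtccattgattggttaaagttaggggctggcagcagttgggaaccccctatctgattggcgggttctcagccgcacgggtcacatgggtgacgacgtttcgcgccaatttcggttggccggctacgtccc

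Mitosis genes fell in a higher share than any other pathway list, 26 of 30 with 0 higher (median log2 fold change -1.67 and -1.52 after median-ratio scaling), and 25 fell after median-ratio scaling. Ccnb2, the gene of cyclin B2, stood at 16.0, 19.4 and 17.4 FPKM in control and 1.29, 1.68 and 1.15 FPKM with LPS+ATP. Cdc20, an activator of the anaphase-promoting complex, fell from 10.54 ± 0.407 to 0.830 ± 0.206 FPKM, Ccna2, cyclin A2, from 11.5 ± 0.157 to 0.771 ± 0.138 FPKM, and Top2a, a topoisomerase, from 9.73 ± 0.309 to 1.47 ± 0.0789 FPKM. Mki67, a common proliferation marker, was not among them, at 15.8 ± 0.235 and 16.1 ± 0.557 FPKM (log2 fold change 0.02 ± 0.04). The cell cycle homology region TTTGAA lay in 19 of 25 matched mitosis genes and CCAAT in 19, or 76.0% for each, whereas 14.5% and 42.9% of all tested genes held them. The Ccnb2 promoter, of the gene with TTTGAA that fell most, is shown with the matches on either strand in capitals (chr9:70421505-70421804, minus strand).
Ccnb2: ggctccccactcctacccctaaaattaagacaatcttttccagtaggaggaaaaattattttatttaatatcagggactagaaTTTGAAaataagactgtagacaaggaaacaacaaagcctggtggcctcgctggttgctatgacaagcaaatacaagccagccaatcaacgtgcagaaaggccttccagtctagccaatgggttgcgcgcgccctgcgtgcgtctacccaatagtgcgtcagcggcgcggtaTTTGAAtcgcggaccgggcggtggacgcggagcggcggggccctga

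Inhibitors of the cell cycle did not move as one. Cdkn1a, the gene of p21, rose from 25.6 ± 0.752 to 95.7 ± 2.77 FPKM, whereas Cdkn2c, the gene of p18, fell from 7.88 ± 0.0610 to 0.604 ± 0.115 FPKM. Ccnd1, the cyclin induced by growth factors, fell from 15.5 ± 0.891 to 1.78 ± 0.142 FPKM, but it overlaps Oraov1 on the opposite strand. Of 79 genes of cytosolic ribosomal proteins 14 fell and 0 rose, and 2 fell after median-ratio scaling (median -0.84 and -0.52 before and after it), so that most of these calls depend on the scaling. Many of them have near copies in pseudogenes, and Rpl13, without such a flag, measured 159 ± 9.96 and 73.1 ± 0.769 FPKM. For 22 genes of ribosome biogenesis the median log2 fold change was -0.31 and -0.01 after median-ratio scaling, and no member passed both the fold limit and the limma adjusted p.

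Some called genes lay next to each other. Runs were sought in the order of tested protein-coding genes, and untested and noncoding genes between them were skipped. Runs of at least 4 such neighbours that all rose included the 6 genes from Ifit2 to Ifit1 on chromosome 19, the Ccl2, Ccl7, Ccl12 and Ccl8 group on chromosome 11, the Oas genes on chromosome 5, and Psmb9, Tap1, Psmb8, Tap2 and H2-Ab1 on chromosome 17. Another run of 6 on chromosome 17 held Trem1, Trem3, Treml4 and Treml2, of the family of triggering receptors on myeloid cells. Lower runs were fewer, 6 against 20, and the longest held 5 genes on chromosome 11, among them the CD300 receptor genes Cd300a, Cd300lb, Cd300ld and Cd300c2. Order was taken from the GENCODE annotation on GRCm38, and clusters of gene families share sequence, which can also share reads. The genes of these runs were named after their values were seen.

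The response of Nlrp3-/- BMDMs was used to see which wild-type changes depended on genotype. Of the 2452 genes called in wild-type cells, 99.14% had the same sign in Nlrp3-/- cells and 1515 were also called there in the same direction. The interaction, the wild-type minus the Nlrp3-/- log2 fold change, was called by limma for 271 genes (2.15%), 180 positive and 91 negative. Of the 176 among wild-type called genes, 96 rose more and 11 rose less in wild-type cells, and 59 fell more and 10 fell less. These 176 had to be called in wild-type cells, which favours a larger wild-type response. Inhba had an interaction of 2.83, with 1.235 ± 0.0792 and 133 ± 0.493 FPKM in wild-type cells and 8.18 and 76.3 FPKM in Nlrp3-/- cells. Acod1 (2.07), Ptgs2 (1.96), Nos2 (1.65) and Il1b (1.46) also had positive interactions, and in each the Nlrp3-/- control was higher and the Nlrp3-/- LPS+ATP level lower, as for Il1b at 1.46 and 995 FPKM. Cxcl9 was the reverse at -1.21, reaching 481 FPKM in Nlrp3-/- cells. Cd28 fell more in wild-type cells (-1.80), from a control level of 18.0 FPKM against 4.85 FPKM. Mean control levels of the Y-linked gene Ddx3y were 9.10 FPKM for wild-type and 0 for Nlrp3-/- cells, and those of Xist 0.0280 and 53.8 FPKM, so the sex of the mice and the genotype cannot be told apart in these interactions.

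**Figure D5:**
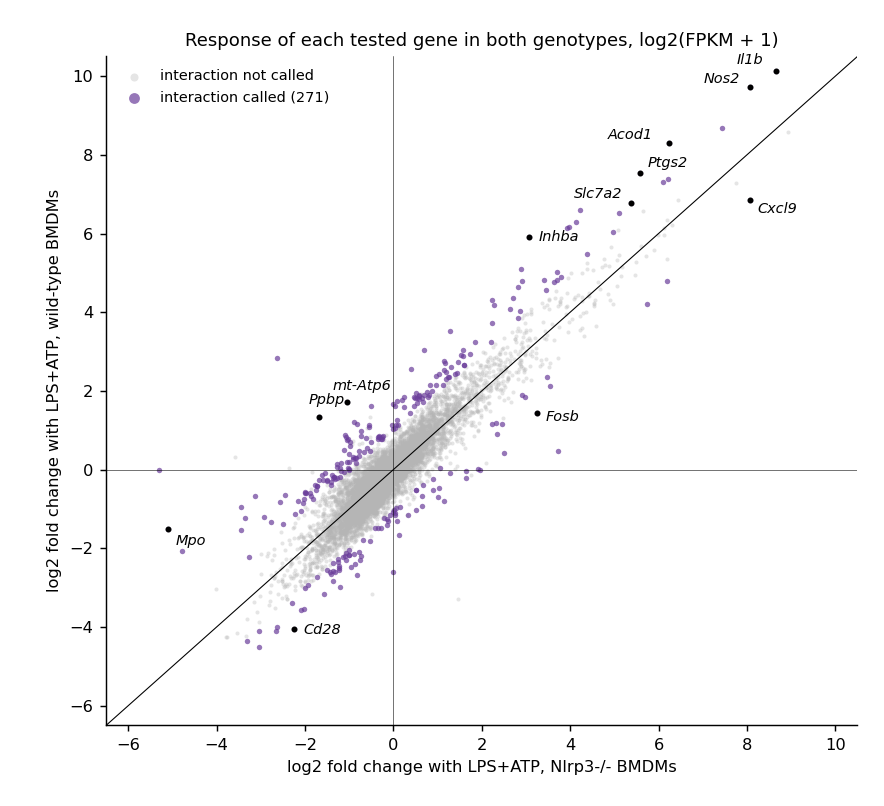
Log2 fold change of log2(FPKM + 1) with LPS+ATP of each tested gene in Nlrp3-/- BMDMs (x axis) and wild-type BMDMs (y axis), with the line of equal response and, in purple, the 271 genes with a called interaction (black where labelled by name). Most genes lie along the line, Inhba, Il1b, Nos2, Acod1 and Ptgs2 lie above it on the side of a larger wild-type rise, and Cxcl9 and Fosb lie below it.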

How the data were processed

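RNA sequencing libraries of bone marrow-derived macrophages (BMDMs) were grouped by the genotype and treatment in their labels. Per the labels, RNA was extracted with Trizol and libraries were made with an Illumina TruSeq kit. The authors deposited FPKM values (fragments per kilobase of gene, scaled to library size) for each gene and library, without pooling replicates. The submitters' processing notes name the genome build GRCm39 and DESeq2 1.24.0, and the aligner, counter, annotation and strand setting are not given in the sources used here. The files held no read counts, so depth was known only as a ratio between libraries and no count test or counting interval was used.

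Genes with at least 1 FPKM in at least 3 of the 12 libraries were kept, 1 was added as a pseudocount, and log2(FPKM + 1) was fitted in limma 3.58.1 (R 4.3.3) with a mean for each of the 4 groups and an empirical Bayes trend. Contrasts were two-sided, p-values were adjusted by Benjamini-Hochberg over all 12622 tested genes, and calls needed an adjusted p below 0.05 together with a change of 1 or more, up or down, on the log2 scale. The response in wild-type BMDMs and its difference from Nlrp3-/- BMDMs (the interaction) were tested. The fit was tested on simulated data. Biotype, gene order and overlaps came from GENCODE M21 (GRCm38), which matched 55154 of 55335 identifiers, near copies from transcript matches (blastn 2.17.0+) with 95% identity covering 20% or more, and promoters from RefSeq (GRCm38.p6). No coordinate of the authors' build was used. Python 3.11.15, numpy 2.4.6, pandas 2.3.3 and matplotlib 3.10.9 made the tables and plots.

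The genes named were the 12 protein-coding genes that rose most and the 12 that fell most without overlap of libraries, fixed core members of 59 gene lists, up to 5 rises and 5 falls per list, the 10 genes with the highest level in each state, and the 5 largest interactions in each direction. Some genes that this rule names are not reported here. Comparison, genes and lists were chosen with earlier results of these data known, so their directions are not independent evidence. Alternatives were another scaling (median ratio, upper quartile, TPM), pseudocount, filter, fold limit and variance model, the wild-type libraries alone, a replicate block, and the omission of each wild-type library. Same-numbered control and LPS+ATP libraries did not deviate together (Pearson's r of deviations 0.0089, -0.0418 and -0.0151), so replicate numbers were not treated as pairs.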

Additional observations from a re-analysis of the deposited data

Results flagged for a closer look

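The 5 largest differences between genotypes in each direction, among genes called in wild-type BMDMs and for the interaction, are given here because the test of the interaction itself was passed (limma adjusted p over all tested genes). Each value is the wild-type minus the Nlrp3-/- log2 fold change. The sex of the mice and the genotype cannot be told apart in any of them.

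Of the positive differences, that of Inhba was 2.83, with a larger rise in wild-type BMDMs. Mpo, a neutrophil granule enzyme, had 3.58, and its control level was 2.09 FPKM for wild-type but 53.3 FPKM for Nlrp3-/- libraries, falling to 0.0803 and 0.585 FPKM with LPS+ATP. Ppbp, a platelet and myeloid chemokine gene, had 3.01 and moved in opposite directions, from 31.3 to 80.4 FPKM in wild-type and from 108 to 33.1 FPKM in Nlrp3-/- BMDMs. The mitochondrial gene mt-Atp6 had 2.76, from 268 to 877 FPKM in wild-type and from 1839 to 887 FPKM in Nlrp3-/- BMDMs, and its nuclear copy Gm10925 can take reads from it. The histone gene Hist2h2aa1 had 5.48, but it was listed at 0 in all 3 wild-type control libraries and in 1 of the 3 LPS+ATP libraries, so the groups overlapped, and it has 7 near copies.

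Of the negative differences, that of Cd28 was -1.80, with control levels of 18.0 FPKM (wild-type) and 4.85 FPKM (Nlrp3-/-). Fosb, a subunit of AP-1, had -1.81 and rose from 0.0698 to 1.88 FPKM in wild-type and from 0.181 to 10.2 FPKM in Nlrp3-/- BMDMs. The T cell receptor segment Trav13-4-dv7 had -1.83 and the unnamed genes Gm42031 and Gm28188 had -2.58 and -1.78. Control levels of these 3 were lower in Nlrp3-/- BMDMs, at 0.851, 0.0137 and 0.139 FPKM against 5.92, 22.9 and 5.15 FPKM. Trav13-4-dv7 and Gm42031 have 4 and 2 near copies.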

How the results depend on the processing

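The counts of genes higher with LPS+ATP in wild-type BMDMs (1041), genes lower with LPS+ATP in wild-type BMDMs (1411) and genes whose LPS+ATP response differs between wild-type and Nlrp3-/- BMDMs (271, interactions) depended most on the fold limit, the scaling and the pseudocount. With no fold limit 2940 were higher, 6701 lower and 3494 had an interaction. Median-ratio scaling gave 895 lower beside 1388 higher genes. A pseudocount of 0.1 gave 2358 lower genes and 634 interactions, and TPM gave 501 interactions. Leaving out each wild-type library in turn gave 1034 to 1047 higher, 1391 to 1431 lower and 268 to 275 interactions. The fit with a replicate block gave 1041, 1412 and 268 and changed no call of a named gene, and the numbers were not pairs. Counts of the other alternatives stayed within 1.5 times. Of 478 named genes none reversed in direction. Median-ratio scaling ended 32 calls and made 20 new ones among them, upper-quartile scaling 16 and 12, and the pseudocount of 0.1 and TPM 1 and 9 each. Relb, Ccr7, Sdha, Nr4a1, Il6st, P2ry12, Casp9, Uqcrh, Mt2, Timd4 and Itgb7 lay so near the fold limit that leaving out a library changed their call. Hist2h2aa1 (log2 fold change 2.83) lost its call with no filter, no variance trend or wild-type libraries alone, without any 1 of the control libraries, and without LPS+ATP replicate 1 (2.16) or 2 (2.09). The files gave no counts, so the error of counting at low levels is unknown.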
